A study of Mus musculus with 14 samples.

Results

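The MYC, MAX and MXD network was followed here as 9 genes, picked by symbol from the 54532 gene symbols of the count table. They are the MYC paralogues Myc, Mycn and Mycl, their partner Max, the MAX-binding repressors Mxd1, Mxd4, Mxi1 and Mnt, and Mlx, which stands in for MAX in a parallel branch. All 9 were found. RNA was sequenced from 14 bulk samples of C57BL/6 mouse bone marrow, sorted as LT-HSC (long-term haematopoietic stem cells) or GMP (granulocyte-monocyte progenitors). Each cell type had 3 AML1-ETO libraries, with the genotype Runx1-Runx1t1, and 4 control libraries, with the genotype WT. AML1-ETO is the leukaemia fusion of the DNA-binding part of RUNX1 with RUNX1T1, switched on here by Mx1-Cre, whose interferon-responsive promoter acts in many tissues besides blood. Every sample, WT controls included, is labelled as given poly(I:C), an RNA mimic that induces interferon, in 4 doses of 5 mg/kg. The labels do not state age, sex, sort markers or whether controls carried Mx1-Cre. They also do not say that replicates are different animals, and a p-value here measures only library-to-library spread.

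MYC proteins bind DNA only as dimers with MAX, mostly at the E-box CACGTG, and raise genes of ribosome assembly, nucleotide synthesis and cell growth. MXD proteins and MNT compete for the same MAX and the same sites, and bring in the SIN3 and histone deacetylase corepressors. In blood, Myc and Mycn serve overlapping needs of stem cells, and MXD genes are known to come up as myeloid cells leave the cell cycle.

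The libraries held 13210952 to 19403864 counts. Levels are given as CPM (each count scaled to a common library size, with TMM factors over all samples), and a gene is called higher or lower when edgeR's quasi-likelihood test gives an adjusted p under 0.05 over all genes tested. Runx1t1, the fusion's second part, stood at 85.5 to 164 CPM in AML1-ETO and 0 to 18.1 CPM in control LT-HSCs, and at 26.0 to 45.6 against 1.69 to 2.73 CPM in GMPs. The summed level of 10 GMP markers was 28692 to 32704 CPM in control GMPs and 128 to 460 CPM in control LT-HSCs. The 10 LT-HSC markers summed to 957 to 2250 CPM in control LT-HSCs and 346 to 396 CPM in control GMPs. Control LT-HSC libraries also held transcripts of 8 B and plasma cell markers, at 13017 to 76323 CPM against 113 to 642 CPM in AML1-ETO LT-HSCs. AML1-ETO LT-HSCs held GMP markers at 1677 to 1994 CPM and 8 mast cell and basophil markers at 8395 to 11204 CPM, against 11.9 to 65.7 CPM for the latter in control LT-HSCs. Among defining markers at 0 in every library of a group were the GMP marker Elane and the neutrophil markers Mmp8 and Mmp9 in AML1-ETO LT-HSCs, and the GMP marker Csf1r and the mast cell and basophil markers Fcer1a and Prss34 in control LT-HSCs. These differences in cell type markers move with genotype in every LT-HSC result below, and their part in those results was not tested.

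The promoters of the 3 members with the clearest changes in LT-HSCs are shown first, because Mycn fell there while Mxd1 and Mxd4 rose. RefSeq promoters (GRCm38.p6, 250 bases before to 50 bases after the start) matched 8 of the 9 members by symbol, with 10 sequences. The member with no match was Myc. Capitals mark the motif TTTGGCGC, an E2F-type motif, in Mycn and the E-box CACGTG in Mxd4. Mxd1 held neither. The Mycn promoter is chr12:12941787-12942086, the Mxd1 promoter chr6:86669110-86669409 and the Mxd4 promoter chr5:34187661-34187960, all on the minus strand.
Mycn: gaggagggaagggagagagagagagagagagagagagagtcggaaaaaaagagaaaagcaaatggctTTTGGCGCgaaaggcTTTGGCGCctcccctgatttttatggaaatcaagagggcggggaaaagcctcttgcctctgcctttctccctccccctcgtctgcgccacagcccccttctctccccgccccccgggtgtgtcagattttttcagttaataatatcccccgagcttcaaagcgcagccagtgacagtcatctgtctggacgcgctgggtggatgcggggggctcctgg
Mxd1: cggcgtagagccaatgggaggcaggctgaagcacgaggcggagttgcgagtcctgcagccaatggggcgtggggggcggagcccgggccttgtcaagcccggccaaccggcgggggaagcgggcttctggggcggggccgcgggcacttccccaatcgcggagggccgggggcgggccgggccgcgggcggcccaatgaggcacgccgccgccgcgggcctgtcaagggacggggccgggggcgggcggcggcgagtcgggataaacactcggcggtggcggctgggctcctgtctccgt
Mxd4: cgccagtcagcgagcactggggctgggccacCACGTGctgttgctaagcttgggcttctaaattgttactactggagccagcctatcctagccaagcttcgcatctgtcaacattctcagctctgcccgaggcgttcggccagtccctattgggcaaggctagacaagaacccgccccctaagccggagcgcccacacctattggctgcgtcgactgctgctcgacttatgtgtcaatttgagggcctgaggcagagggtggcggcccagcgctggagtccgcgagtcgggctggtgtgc
The Mycn motifs begin 183 and 168 bases before the start. TTTGGCGC (searched on both strands, also as GCGCCAAA) was looked up after the Mycn sequence had been read, and 0.5% of 32851 promoters of the same length hold it.

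The E-box CACGTG, which reads the same on both strands, was present in the promoters of 4 of the 8 matched members, Mxd4, Max, Mnt and Mlx, against 7.2% of all 32851 promoters. These windows of 30 bases show each one, with the E-box in capitals, since MYC, MAX and MXD proteins themselves bind this motif.
Mxd4: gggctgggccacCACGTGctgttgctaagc
Max: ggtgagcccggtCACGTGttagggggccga
Mnt: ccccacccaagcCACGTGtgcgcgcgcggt
Mlx: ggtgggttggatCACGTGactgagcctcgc
The motif begins 219 bases before the start in Mxd4 (chr5:34187912-34187941, minus strand), 3 bases before it in Max (chr12:76962234-76962263, minus strand), 123 in Mnt (chr11:74830789-74830818, plus strand) and 40 in Mlx (chr11:101087238-101087267, plus strand). The RUNX motif TGTGGT, in either orientation, was in none of the members' promoters (16.8% of all promoters), and TGCGGT was in those of Max and Mxi1 (6.5%). A match is a string of letters in the window and not a measured binding site.

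In LT-HSCs, AML1-ETO libraries lost nearly all Mycn reads while Mxd1 and Mxd4 stood several-fold higher, and Myc itself was not called. Of the 9 members, 8 passed the filter on low counts. Of these, 2 were called higher, against 7.59% of all 14589 genes tested, and 1 was called lower, against 4.69%. The median log2 fold change of the 8 was 0.62, beside 0.03 over all genes. AML1-ETO and control did not overlap in 4 of the 8 (Mycn, Max, Mxd1 and Mxd4), against 28.5% of all genes. Of those, 3 were higher, against 15.6% of all genes, and 1 was lower, against 12.8%.

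In GMPs, Myc was lower in AML1-ETO libraries, and Mxd1 and Mxi1 were higher. All 9 members passed the filter, 2 were called higher, against 5.47% of 13981 genes tested, and 1 was called lower, against 3.96%. The median log2 fold change of the 9 was 0.79, beside −0.03 over all genes. Groups did not overlap in 4 of the 9 (Myc, Mxd1, Mxd4 and Mxi1), against 26.7% of all genes. Of those, 3 were higher, against 10.6% of all genes, and 1 was lower, against 16.1%.

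**Figure D1:**
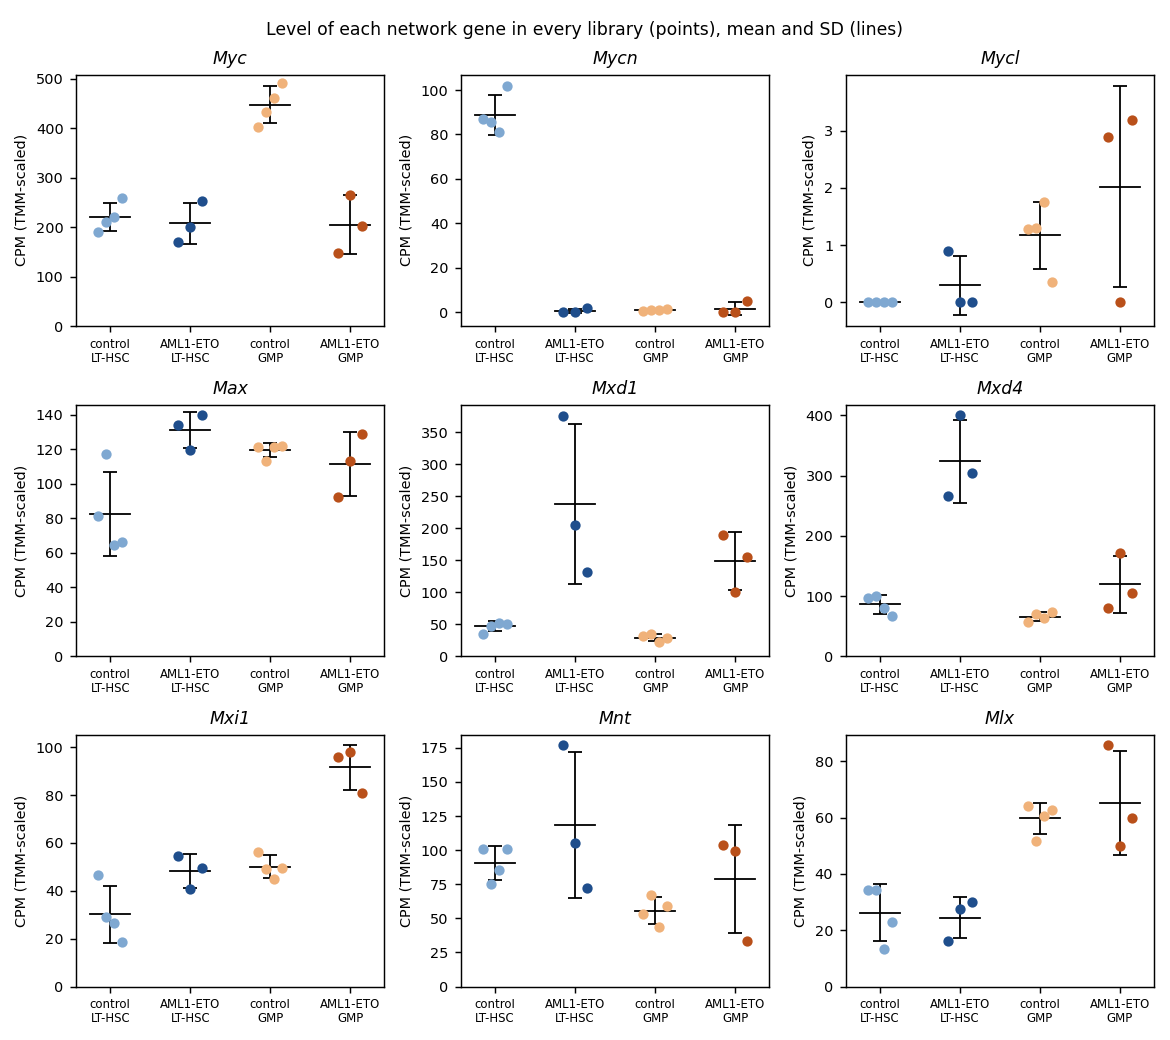
Level of each of the 9 network genes (y axis, TMM-scaled CPM, a linear scale that differs between panels) in every library of the 4 groups (x axis); points are libraries, long lines means and bars SD. Mycn stands at 80.9 to 102 CPM in control LT-HSCs and at 4.83 CPM or less in every other library, and Mxd1 is above every control library in all AML1-ETO libraries.

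Mycn (chromosome 12, 12936093 to 12941914, mm10) encodes N-MYC, a paralogue expressed in stem cells and neural progenitors. It stood at 86.9, 85.8, 80.9 and 102 CPM in the 4 control LT-HSC libraries. In the 3 AML1-ETO LT-HSC libraries it stood at 0, 0 and 1.65 CPM, that is 0, 0 and 27 counts. Control values lay close together, and no AML1-ETO library came near them. The log2 fold change was −7.20 ± 1.13 (SE, adjusted p = 0.00694), and the gene was called under every alternative setting run and with each of the 7 libraries left out. In bulk samples, fewer cells of a type and less RNA per cell cannot be told apart.

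Mycn was low in GMPs of both genotypes. It stood at 0.481, 0.753, 1.04 and 1.51 CPM in control GMPs and at 0, 0 and 4.83 CPM in AML1-ETO GMPs. The ranges overlapped, and the log2 fold change was 0.79 ± 1.66 (adjusted p = 0.83). It rested on AML1-ETO GMP replicate 3 with 79 counts, without which AML1-ETO GMPs had no Mycn read and the gene was called lower (adjusted p = 0.0326), with a fitted value of −6.99 that is no bound. Summed erythroid markers (7 genes) moved with Mycn between LT-HSC groups, at 333 to 1375 CPM in controls and 28.5 to 108 CPM in AML1-ETO libraries. Control LT-HSC replicates 1 to 4 had erythroid sums of 333, 1375, 848 and 945 CPM and Mycn levels of 86.9, 85.8, 80.9 and 102 CPM. Their B and plasma cell sums were 13332, 76323, 13017 and 17415 CPM. The part of these markers in the Mycn result was not tested.

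Myc (chromosome 15, 61985391 to 61990374) encodes c-MYC, the main growth regulator of the family. It stood at 191, 210, 221 and 260 CPM in the controls, compared with 171, 201 and 253 CPM in AML1-ETO LT-HSCs. The ranges overlapped almost entirely, and the log2 fold change was 0.01 ± 0.19 (adjusted p = 0.992), with a sign that changed with the scaling (−0.05 with RLE and −0.12 with upper-quartile factors).

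In GMPs, Myc stood at 404, 434, 461 and 492 CPM in the controls, compared with 147, 265 and 203 CPM in AML1-ETO libraries. Every AML1-ETO library lay below every control library, by a log2 fold change of −1.11 ± 0.19 (adjusted p = 0.0179). The call was lost without control GMP replicate 1, 2, 3 or 4, with adjusted p of 0.0613, 0.0601, 0.0784 and 0.0755, while the fold change stayed between −1.05 and −1.15. It held without any one AML1-ETO library. AML1-ETO GMP libraries held erythroid markers at 53.0 to 4309 CPM, against 8.34 to 14.1 CPM in control, and 7 mature neutrophil markers at 249 to 2185 CPM, against 20.9 to 34.5 CPM. The 8 mast cell and basophil markers summed to 2144 to 3243 CPM there, against 285 to 503 CPM. Of the 8, 6 were called higher, against 5.47% of all genes. That count was 3, 4, 3 and 3 without control GMP replicate 1, 2, 3 or 4. With a library left out, 116 to 1550 of all genes were called higher, against 765. The part of these markers in the fall of Myc was not tested. The lowest Myc level was in replicate 1, the library with 4309 CPM of erythroid and 2185 CPM of neutrophil markers, and replicate 2, with 53.0 CPM of erythroid markers, had the highest, 265 CPM.

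Mycl (chromosome 4, 122995652 to 123002485) encodes L-MYC and was barely detected. It had 0 counts in all 4 control LT-HSC libraries, and in AML1-ETO LT-HSCs it was seen in replicate 1 alone, at 0.895 CPM. In GMPs it stood at 1.28, 1.29, 1.75 and 0.349 CPM in the controls, compared with 2.89, 0 and 3.18 CPM in AML1-ETO libraries. The GMP ranges overlapped, with a log2 fold change of 0.81 ± 1.28 (adjusted p = 0.765), and no test was made in LT-HSCs.

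Max (chromosome 12, 76937269 to 76962201) encodes the partner that every MYC and MXD protein needs. It stood at 81.3, 117, 64.8 and 66.1 CPM in the controls, compared with 134, 119.7 and 139.9 CPM in AML1-ETO LT-HSCs. Control replicate 2 came close to the lowest AML1-ETO library, and the groups did not overlap. The log2 fold change of 0.76 ± 0.24 was not called (adjusted p = 0.0712), although the fit of all 14 samples (adjusted p = 0.0278) and DESeq2 (adjusted p = 0.0392) called it. RLE factors, upper-quartile factors, no filter and the replicate block did not (adjusted p of 0.088 to 0.242). With a library left out it was called in 1 of 7 fits. In GMPs, Max stood at 122, 113, 122 and 122 CPM in the controls, compared with 92.2, 113 and 129 CPM in AML1-ETO libraries, with a log2 fold change of −0.08 ± 0.13 (adjusted p = 0.754).

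Mxd1 (chromosome 6, 86647042 to 86669161) encodes MAD1, the first described MAX-binding antagonist of MYC. It was the member called higher in both cell types. It stood at 35.6, 48.1, 52.7 and 50.8 CPM in the controls, compared with 376, 206 and 132 CPM in AML1-ETO LT-HSCs. These 3 libraries differed widely from each other, and the lowest was still above every control. The log2 fold change was 2.45 ± 0.34 (adjusted p = 0.00456).

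In GMPs, Mxd1 stood at 31.2, 35.2, 21.7 and 28.6 CPM in the controls, compared with 189.6, 100.3 and 156 CPM in AML1-ETO libraries. Groups were again apart, with a log2 fold change of 2.36 ± 0.24 (adjusted p = 0.00426). Both calls held under every alternative setting run and with each library left out, the largest adjusted p being 0.0462 in LT-HSCs and 0.0294 in GMPs. The immediate early genes (12, among them Fos, Jun and Egr1), which respond within minutes to signals and to handling, moved with Mxd1. Their sum was 8656 to 21414 CPM in controls and 23201 to 52254 CPM in LT-HSCs with AML1-ETO, and 2722 to 5031 against 7166 to 12473 CPM in GMPs. Within AML1-ETO LT-HSCs the library with the most Mxd1, replicate 1, had the highest sum, 52254 CPM, whereas within AML1-ETO GMPs replicate 1 had the most Mxd1 and the lowest sum, 7166 CPM. The part of this response in the Mxd1 result was not tested.

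Mxd4 (chromosome 5, 34173883 to 34187720) encodes MAD4, an MXD protein of differentiating and resting cells. It stood at 97.3, 100.2, 80.5 and 67.3 CPM in the controls, compared with 267, 401 and 305 CPM in AML1-ETO LT-HSCs. The lowest AML1-ETO library was far above the highest control. The log2 fold change was 2.00 ± 0.22 (adjusted p = 0.00183), and the call held under every alternative setting run and with each library left out.

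In GMPs, Mxd4 stood at 57.3, 69.9, 63.7 and 73.1 CPM in the controls, compared with 80.5, 172 and 106 CPM in AML1-ETO libraries. The groups did not overlap, but replicate 1 lay just above the highest control. The log2 fold change of 0.87 ± 0.24 was not called (adjusted p = 0.0597), and RLE scaling (adjusted p = 0.0494) and DESeq2 (adjusted p = 0.0055) called it. Upper-quartile factors, no filter, the replicate block and the fit of all samples did not (adjusted p of 0.0652 to 0.167). With a library left out it was called in 1 of 7 fits. Mxd4 shares 514 exon bases with the antisense gene Gm42846, and no source says whether counting used strand, so reads of the pair cannot be told apart.

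Mxi1 (chromosome 19, 53310518 to 53375810) encodes the MXD family member also known as MAD2. It stood at 46.6, 29.0, 26.4 and 18.7 CPM in the controls, compared with 54.7, 40.6 and 49.4 CPM in AML1-ETO LT-HSCs. Control replicate 1 lay among the AML1-ETO libraries, and the log2 fold change of 0.76 ± 0.34 was not called (adjusted p = 0.201).

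In GMPs, Mxi1 stood at 56.4, 49.2, 44.8 and 49.6 CPM in the controls, compared with 96.1, 97.8 and 80.7 CPM in AML1-ETO libraries. All AML1-ETO libraries lay above all controls, by a log2 fold change of 0.89 ± 0.13 (adjusted p = 0.0107). The call was lost without control GMP replicate 3 (adjusted p = 0.0541) or 4 (adjusted p = 0.0543) and in the fit of all 14 samples (adjusted p = 0.0825). Mxi1 shares 194 exon bases with Gm10197 on the other strand.

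Mnt (chromosome 11, 74830920 to 74845725) encodes the broadly expressed MAX partner that represses MYC targets in resting and cycling cells alike. It stood at 101, 75.1, 85.5 and 100.5 CPM in the controls, compared with 177, 106 and 72.6 CPM in AML1-ETO LT-HSCs. In GMPs it stood at 53.0, 66.8, 43.9 and 58.8 CPM in the controls, compared with 104, 99.0 and 33.0 CPM in AML1-ETO libraries. In each cell type 1 AML1-ETO library, replicate 3, lay below all controls and the other 2 above them. The log2 fold changes of 0.49 ± 0.30 in LT-HSCs (adjusted p = 0.384) and 0.52 ± 0.36 in GMPs (adjusted p = 0.441) were not called. Without AML1-ETO GMP replicate 3 the GMP difference was called (0.88, adjusted p = 0.0242).

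**Figure D2:**
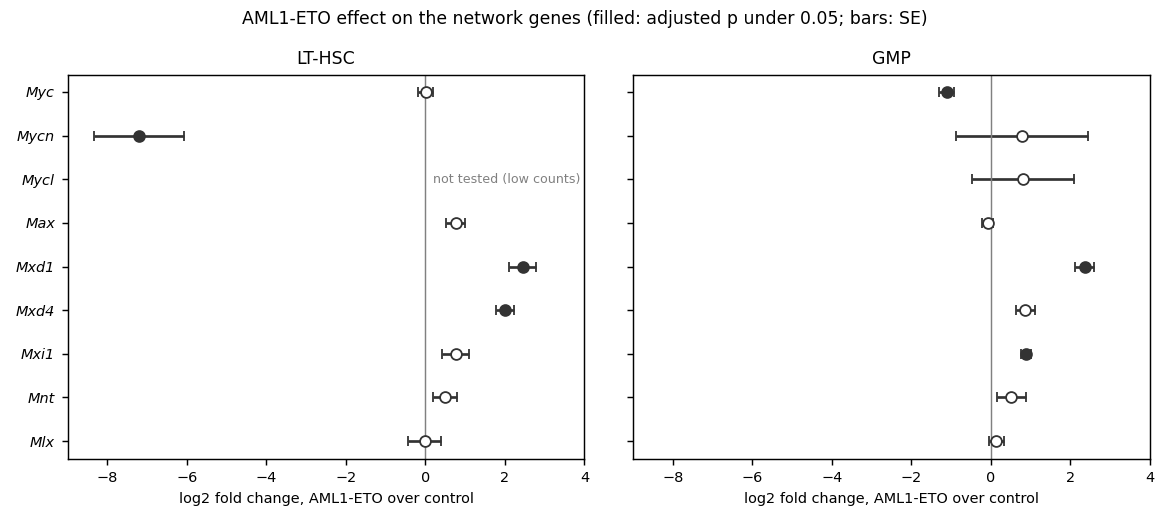
Fitted log2 fold change of AML1-ETO over control (x axis) for each network gene (rows) in LT-HSCs on the left and GMPs on the right; circles are estimates, filled at an adjusted p under 0.05, and bars are SE. Mxd1 is filled on the right of 0 in both panels, at 2.45 and 2.36, Mycn is filled at −7.20 in LT-HSCs and Myc at −1.11 in GMPs.

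Mlx (chromosome 11, 101087277 to 101092207) encodes the partner of the glucose-sensing factors MondoA (Mlxip) and ChREBP (Mlxipl), and can also pair with MXD1, MXD4 and MNT. It stood at 34.4, 34.2, 13.3 and 23.0 CPM in the controls, compared with 16.2, 27.5 and 29.9 CPM in AML1-ETO LT-HSCs. In GMPs it stood at 64.1, 51.8, 60.7 and 62.7 CPM in the controls, compared with 85.8, 49.8 and 60.0 CPM in AML1-ETO libraries. AML1-ETO and control overlapped in both cell types, with log2 fold changes of −0.02 ± 0.42 (adjusted p = 0.992; 0.00 with no low-count filter) and 0.14 ± 0.19 (adjusted p = 0.721). Mlx shares 385 exon bases with Psmc3ip on the other strand.

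The other network genes were Mlxip, Mlxipl, Mga and Mxd3, of which 3 were tested within each cell type. Mlxip, MondoA, stood at 184, 99.3, 75.5 and 96.6 CPM in the controls, compared with 304, 313 and 263 CPM in AML1-ETO LT-HSCs. It was called higher without overlap, by a log2 fold change of 1.45 ± 0.31 (adjusted p = 0.0205). The call was lost without AML1-ETO LT-HSC replicate 1, 2 or 3 or control LT-HSC replicate 4, with adjusted p of 0.084, 0.102, 0.0612 and 0.059. In GMPs Mlxip stood at 121, 143, 113 and 147 CPM in the controls, compared with 157, 116 and 110.3 CPM in AML1-ETO libraries, with overlap and a log2 fold change of −0.02 ± 0.16 (adjusted p = 0.963; 0.02 with RLE factors). Mlxip shares 267 exon bases with the antisense gene Gm15747.

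Mga, a MAX partner of the polycomb complex PRC1.6, and Mxd3, the MXD gene of cycling cells, were not called in either cell type. Their log2 fold changes were 0.23 ± 0.29 (adjusted p = 0.715) and −1.83 ± 0.99 (adjusted p = 0.303) in LT-HSCs, and −0.18 ± 0.28 (adjusted p = 0.752) and 0.91 ± 0.60 (adjusted p = 0.412) in GMPs. Mga ranged from 79.3 to 231 CPM over all libraries and Mxd3 from 0.920 to 13.3 CPM. Mlxipl, ChREBP, stood at 2.85 CPM or less in every library and was not tested within a cell type.

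Txnip and Arrdc4, arrestin genes that MondoA and MLX are known to switch on when glucose phosphates build up, were read beside Mlxip. Txnip stood at 506, 709.7, 171 and 299 CPM in the controls, compared with 500.1, 543 and 1001 CPM in AML1-ETO LT-HSCs, which overlapped (log2 fold change 0.78 ± 0.46, adjusted p = 0.355). In GMPs it stood at 71.2, 90.8, 61.0 and 60.6 CPM in the controls, compared with 249, 187 and 623 CPM in AML1-ETO libraries, all above control. It was called higher there, by a log2 fold change of 2.33 ± 0.39 (adjusted p = 0.0171). The call was lost without control GMP replicate 1, 2, 3 or 4, with adjusted p of 0.0729, 0.0525, 0.0806 and 0.0765. Arrdc4 was not called in LT-HSCs (−1.17 ± 0.62, adjusted p = 0.288) or in GMPs (0.53 ± 0.40, adjusted p = 0.478), and its ranges overlapped in both.

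Per kilobase of merged exon, which allows genes to be set beside each other, Myc was the most abundant member in all 4 groups, at 81.2 ± 10.6 CPM per kilobase (SD, n = 4) in control LT-HSCs, 76.7 ± 15.4 (n = 3) in AML1-ETO LT-HSCs, 165 ± 13.9 (n = 4) in control GMPs and 75.5 ± 21.7 (n = 3) in AML1-ETO GMPs. Mycn made up 23.2% to 27.3% of the summed level of the MYC paralogues in control LT-HSCs. Its share was at most 0.534% in AML1-ETO LT-HSCs, 0.253% in control GMPs and 1.91% in AML1-ETO GMPs. Myc supplied 72.7% to 76.8% of the paralogue level in control LT-HSCs and at least 97.1% in every other library.

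The sum of Mxd1, Mxd4, Mxi1 and Mnt, divided by that of Myc, Mycn and Mycl, both per kilobase, was 0.467, 0.378, 0.371 and 0.313 in control LT-HSCs. It was 2.07, 1.42 and 0.827 in AML1-ETO LT-HSCs. In GMPs it was 0.207, 0.218, 0.156 and 0.180 in control and 1.33, 0.718 and 0.695 in AML1-ETO libraries. The ratio was above every control value in all AML1-ETO libraries of both cell types, and above 1 in 3 of 6 of them. Its size depends on the gene lengths used. Mxd4 has 8483 bases of merged exon and 4627 in its longest transcript, and Myc has 2717 and 2338. The count above 1 is therefore one for merged exon alone. No test was made on this ratio, since it adds members whose single results are given above. The AML1-ETO LT-HSC library with the highest ratio, replicate 1, had the most Mxd1 and Mnt and the least Myc of its group.

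**Figure D3:**
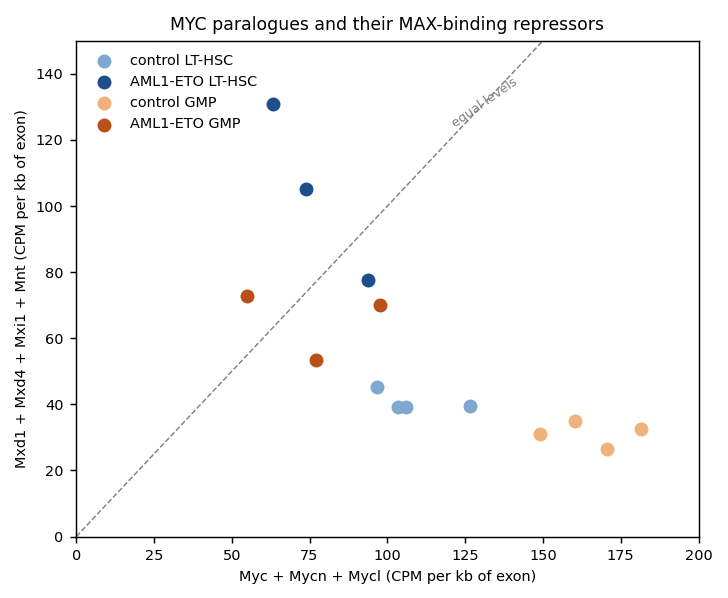
Summed level of the repressors Mxd1, Mxd4, Mxi1 and Mnt (y axis) against that of Myc, Mycn and Mycl (x axis), in CPM per kilobase of merged exon, for each of the 14 libraries, with a dashed line of equal levels. Control GMPs lie lowest and furthest right and control LT-HSCs between 0.313 and 0.467 of the line. AML1-ETO libraries lie between 0.695 and 2.07 of the line, 3 of them above it.

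The make-up of the repressor group also differed by genotype. Mnt was its largest part in control libraries, at 47.9% ± 5.5 of the summed repressor level per kilobase of merged exon in LT-HSCs (SD, n = 4) and 38.3% ± 2.5 in GMPs (n = 4). In AML1-ETO libraries it was 20.2% to 29.3% and 13.4% to 30.9%, below every control of the same cell type. Mxd1 made up 16.4% ± 3.6 (n = 4) in control and 24.1% to 40.6% in AML1-ETO LT-HSCs, and 11.5% to 14.3% against 20.2% to 41.2% in GMPs. Mxd4 made up 38.4% ± 12.5 in AML1-ETO LT-HSCs, where its range overlapped that of control (20.1% to 30.2%). The place of Mnt as the largest part depended on the length used. Per kilobase of the longest transcript, mean Mxd4 was above mean Mnt in control GMPs (14.3 against 12.1 CPM). In control LT-HSCs Mxd4 was slightly below Mnt by that length (18.7 against 19.7 CPM).

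The test of the difference between the cell types, the AML1-ETO effect in GMPs minus that in LT-HSCs, called 2 of 9 members, against 6.34% of 16116 genes. It called 1 higher, against 3.43%, and 1 lower, against 2.91%. Myc was the lower one, at −1.04 ± 0.27 (adjusted p = 0.0373). The call was lost without AML1-ETO LT-HSC replicate 2 or 3, AML1-ETO GMP replicate 1 or 3, or any of control GMP replicates 1 to 4, with adjusted p of 0.0574 to 0.106. Mycn was the higher one, at 8.07 ± 1.91 (adjusted p = 0.0225). This value rested on AML1-ETO GMP replicate 3, without which it was 0.35 (adjusted p = 0.931), and the call was also lost without AML1-ETO LT-HSC replicate 1 or 2 or control GMP replicate 1 or 2 (adjusted p of 0.0502 to 0.0754).

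For Mxd1 the effects in the cell types differed by 0.01 ± 0.43 (adjusted p = 1.0), a value whose sign changed with the scaling. Mxd4 had a larger value in LT-HSCs, with a difference of −1.04 ± 0.33 that was not called (adjusted p = 0.0833). It was called with DESeq2 (adjusted p = 0.0458) and not with the other settings run (0.0569 to 0.0907). The difference for Max, −0.77 ± 0.28, was not called (adjusted p = 0.124). Mlxip differed by −1.39 ± 0.35 (adjusted p = 0.0309), a call lost with RLE factors (adjusted p = 0.0504) and without AML1-ETO LT-HSC replicate 1 or 2, control LT-HSC replicate 2 or 4, AML1-ETO GMP replicate 2 or 3, or control GMP replicate 1, 2 or 4 (adjusted p of 0.0518 to 0.0858).

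Between cell types in control mice, 5 of 9 members were called higher in GMPs than in LT-HSCs, against 13.9% of 16116 genes, and 1 lower, against 10.6%. Groups did not overlap in 6 of 9 (Myc, Mycn, Mycl, Mxd1, Mnt and Mlx), against 32.3% of all genes. Myc was higher by 1.01 ± 0.18 (adjusted p = 0.00114) and Mlx by 1.18 ± 0.30 (adjusted p = 0.0112), and Mycn was lower (−6.55 ± 1.33, adjusted p = 0.00285). These 3 calls held with each library left out. Mycl had 0 counts in control LT-HSCs and stood at 1.17 ± 0.589 CPM (SD, n = 4) in control GMPs. That mean was 24.2-fold above a group-wide floor of 3 counts, or 0.0483 CPM. The floor takes no account of spread between libraries, so the fold is no firm bound. The adjusted p of Mycl was 0.0411. It was 0.0505 to 0.0791 with any 1 of the 8 control libraries, or AML1-ETO GMP replicate 1 or 3, left out.

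Max was higher by 0.53 ± 0.18 (adjusted p = 0.0475) and Mxi1 by 0.72 ± 0.24 (adjusted p = 0.0384) in control GMPs. Both calls were lost with RLE factors (adjusted p = 0.15 and 0.119), and all but 3 of the 14 fits with a library left out lost that of Max, and 7 of 14 that of Mxi1. The libraries were control LT-HSC replicates 2 to 4 and control GMP replicates 1 to 4 for Mxi1 (adjusted p of 0.0611 to 0.107). For Max they were control LT-HSC replicates 1, 3 and 4, control GMP replicates 1 to 4, AML1-ETO LT-HSC replicates 1 to 3 and AML1-ETO GMP replicate 2 (0.0514 to 0.117). Control Mxi1 and Max ranges overlapped between the cell types.

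In AML1-ETO mice, 2 of 9 members were called higher in GMPs, against 12.6% of 16116 genes, and 1 lower, against 9.15%. The same 3 (Mxd4, Mxi1 and Mlx) were those without overlap, against 41.8% of all genes. Mxd4 was lower (−1.44 ± 0.26, adjusted p = 0.00123), and Mlx was higher by 1.41 ± 0.35 (adjusted p = 0.0101; 0.0514 without AML1-ETO LT-HSC replicate 1). Mxi1 was higher by 0.92 ± 0.27 (adjusted p = 0.0257), a call lost with RLE (adjusted p = 0.0571) and upper-quartile factors (adjusted p = 0.0529) and without AML1-ETO LT-HSC replicate 2 or 3 or AML1-ETO GMP replicate 1 or 2 (adjusted p of 0.0633 to 0.112). The difference in Myc was −0.02 ± 0.21 (adjusted p = 0.97), where control mice had 1.01. This comparison and the control one use different libraries, and their difference is the test of Myc given above.

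The order of the group means was, for Myc, control GMP (448 ± 37.6 CPM, n = 4), control LT-HSC (220 ± 28.9, n = 4), AML1-ETO LT-HSC (208 ± 41.7, n = 3) and AML1-ETO GMP (205 ± 59.0, n = 3), and the last 3 overlapped. For Mycn, control LT-HSC (88.9 ± 9.01 CPM, n = 4) stood apart and the other 3 groups overlapped. For Mxd1, AML1-ETO LT-HSC (238 ± 125 CPM, n = 3) overlapped AML1-ETO GMP (149 ± 45.1, n = 3), and control LT-HSC (46.8 ± 7.68, n = 4) and control GMP (29.2 ± 5.71, n = 4) each stood apart from the next. For Mxd4, AML1-ETO LT-HSC (324 ± 68.9 CPM, n = 3) stood apart, and the other 3 overlapped their neighbours. Mxi1 was highest in AML1-ETO GMP (91.5 ± 9.43 CPM, n = 3), apart from the next group. For Max and Mnt all neighbours in the order overlapped, and for Mlx the GMP groups stood apart from the LT-HSC groups.

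Among 29 cofactors of the network, the LT-HSC test called 3 higher and 1 lower in AML1-ETO, where 7.59% and 4.69% of all genes were called, with a median log2 fold change of 0.15. Bin1, an adaptor first described as a MYC-binding protein that restrains it, stood at 15.9, 15.2, 36.6 and 16.3 CPM in the controls, compared with 285, 291 and 295 CPM in AML1-ETO LT-HSCs. All AML1-ETO values lay close together and far above control, with a log2 fold change of 3.89 ± 0.33 (adjusted p = 0.00104). Pim1, a kinase that phosphorylates and stabilises MYC, stood at 357, 421, 236 and 289 CPM in the controls, compared with 2311, 2021 and 1285 CPM in AML1-ETO LT-HSCs (2.62 ± 0.29, adjusted p = 0.00195). Both calls held with each library left out.

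Cdk9, the elongation kinase that MYC recruits, was higher by 0.77 ± 0.16 (adjusted p = 0.021), which missed the threshold without AML1-ETO LT-HSC replicate 1 or 2 or control LT-HSC replicate 4 (adjusted p of 0.0555 to 0.106). Ruvbl2, an ATPase of MYC-bound chromatin complexes, was lower (−0.83 ± 0.20, adjusted p = 0.0345), which did so without AML1-ETO LT-HSC replicate 1, 2 or 3 or control LT-HSC replicate 4 (adjusted p of 0.0692 to 0.147). In GMPs 1 of 29 cofactors was higher, against 5.47% of all genes, and 1 lower, against 3.96%. Pim1 stood at 212, 224, 157 and 152 CPM in the controls, compared with 475, 431 and 402 CPM in AML1-ETO GMPs (1.25 ± 0.16, adjusted p = 0.00701). Ruvbl2 was lower (−0.51 ± 0.13, adjusted p = 0.0427), a call that held in 1 of 7 fits with a library left out (adjusted p up to 0.143), the one without AML1-ETO GMP replicate 2. None of the 5 corepressor genes Sin3a, Sin3b, Hdac1, Hdac2 and Ncor1 was called in either cell type.

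A list of 71 genes known from general knowledge to be raised by MYC was then read beside the network. This list, like the members and the other lists, was chosen with earlier results of these data known. Counts set against all genes are therefore no independent test. Among AML1-ETO LT-HSCs, 27 of the 70 tested fell and 0 rose, where 4.69% of all genes fell. Their median log2 fold change was −0.77, beside 0.03 over all genes, and 65 of 70 were negative. The median was the same with the 1 gene that had no counts in a group set against the floor of 3 counts. Of 28 nucleolar and ribosome assembly genes 10 fell, among them Fbl (−0.88), Nolc1 (−1.40) and Polr1a (−0.93). Of 16 genes of polyamine, nucleotide and one-carbon synthesis 9 fell, among them Srm (−1.34), Cad (−1.71) and Mthfd2 (−2.77). Examples within the groups of this list were chosen after their values were seen. For glycolysis and transport 3 of 8 fell, for the cell cycle and telomerase 2 of 5, for mitochondrial genes 3 of 7, and for translation initiation 0 of 6.

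The largest falls with no overlap and at least 20 counts were of Tert, Tfrc, Mthfd2 and Slc16a1. Tfrc, the transferrin receptor, stood at 108, 184, 384 and 164 CPM in the controls, compared with 34.5, 19.2 and 21.5 CPM in AML1-ETO LT-HSCs (−2.96 ± 0.46, adjusted p = 0.0067, and 0.0564 without AML1-ETO replicate 2). Slc16a1, a lactate transporter, stood at 67.2, 103, 115 and 87.1 CPM in the controls, compared with 31.7, 12.3 and 14.8 CPM in AML1-ETO LT-HSCs (−2.14 ± 0.38, adjusted p = 0.0108, and 0.0648 and 0.0509 without AML1-ETO replicate 2 or 3). Both groups were apart for each gene. Mthfd2, a mitochondrial folate enzyme, fell from 25.4 ± 11.8 CPM (SD, n = 4) to 3.49 ± 1.24 CPM (n = 3), and Tert, the telomerase catalytic subunit, from 15.9 ± 7.95 to 1.60 ± 0.424 CPM. The calls of Mthfd2 (adjusted p = 0.0243) and Tert (adjusted p = 0.0219) were lost without AML1-ETO LT-HSC replicate 1, 2 or 3 or control LT-HSC replicate 4, with adjusted p of 0.0557 to 0.135.

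The count of 27 depended on single libraries more than the median did. It was 3, 0 and 6 without AML1-ETO LT-HSC replicate 1, 2 or 3 and 11 without control LT-HSC replicate 4, and the median stayed between −0.69 and −0.85. Without control LT-HSC replicate 1, 2 or 3 the count was 37, 24 and 24. The number of all genes called lower also varied over the same fits, from 111 to 1003, against 684 with every library. The 10 proliferation markers moved with the list, summing to 1239, 1487, 2824 and 2353 CPM in the controls, compared with 763, 565 and 620 CPM in LT-HSCs with AML1-ETO. Of the 10, 8 fell, against 4.69% of all genes, and 2, 0 and 4 did so without AML1-ETO LT-HSC replicate 1 or 2 or control LT-HSC replicate 4. Their part in the fall of the MYC-activated genes was not tested.

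In AML1-ETO GMPs, 19 of 70 MYC-activated genes fell and 0 rose, where 3.96% of all genes fell. The median was −0.36, also with Bcat1 and Tert set against the floor of 3 counts, beside −0.03 over all genes. Of the 70, 66 were negative. By group, 9 of 28 nucleolar genes fell, among them Npm1 (−0.47) and Polr1a (−0.64), with 5 of 16 synthesis genes, 2 of 5 cell cycle and telomerase genes and 1 gene in each of the other groups. Shmt1 stood at 109, 101, 123 and 104 CPM in the controls, compared with 61.5, 67.3 and 65.7 CPM in AML1-ETO GMPs (−0.73 ± 0.11, adjusted p = 0.0114). Shmt2 (−0.67 ± 0.13, adjusted p = 0.0235), its mitochondrial form, and the chaperone gene Hspd1 (−0.65 ± 0.11, adjusted p = 0.018) fell by a similar size. Bcat1 had 0 counts in AML1-ETO GMPs, against 2.49 ± 1.39 CPM in control, and Tert, also at 0, against 1.86 ± 0.728 CPM. These control means were 38.9-fold and 29.0-fold above a group-wide floor of 3 counts, or 0.0640 CPM. That floor takes no account of spread between libraries, so these folds are no firm bound.

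The count of MYC-activated genes that fell was 0, 2, 0 and 0 without control GMP replicate 1, 2, 3 or 4. Without AML1-ETO GMP replicate 1, 2 or 3 it was 21, 39 and 14. Over these fits the median stayed between −0.34 and −0.47. The number of all genes called lower also varied widely over the same fits, from 12 to 1964, against 554 with every library. In the fit of all 14 samples the list count was 2. The single calls were lost with it: without one of these control libraries the adjusted p was up to 0.059 for Shmt1 (replicates 1, 3 and 4), 0.0778 for Hspd1 (replicates 1, 3 and 4) and 0.0898 for Shmt2 and Bcat1 and 0.0896 for Tert (any of the 4). Proliferation markers summed to 2999 to 3257 CPM in controls and 2487 to 3052 CPM in AML1-ETO GMPs, and these ranges overlapped. Of the 10, 3 were called lower, against 3.96% of all genes, and 1 without AML1-ETO GMP replicate 3 or any of control GMP replicates 1 to 4. Mast cell and basophil markers, at 2144 to 3243 CPM against 285 to 503 CPM in controls, moved with this list too, and their part in it was not tested.

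**Figure D4:**
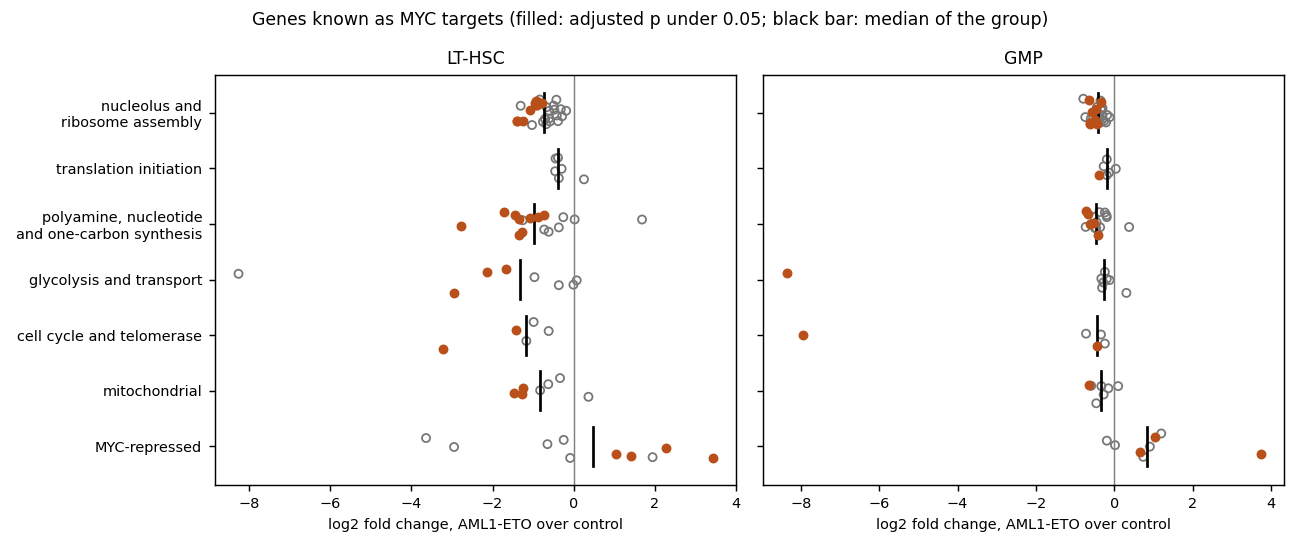
Log2 fold change of AML1-ETO over control (x axis) for genes of the 6 groups of MYC-activated genes and for MYC-repressed genes (rows), in LT-HSCs on the left and GMPs on the right; points are genes, filled at an adjusted p under 0.05, and black bars are group medians. Points of the MYC-activated groups lie mostly left of 0, with list medians of −0.77 and −0.36, and the far-left points, such as Bcat1 in GMPs, are fitted values of genes with no counts in AML1-ETO libraries, which are no bound.

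The difference between the cell types was called for 4 MYC-activated genes in the direction of a smaller fall in GMPs (Mthfd2, Mthfd1l, Slc16a1 and Tfrc), and for Tert, at 0 counts in AML1-ETO GMPs, in the other. These were 4 and 1 of 70 genes, against 3.43% and 2.91% of all genes, and 65 were not called. The count of 4 was 15 without control LT-HSC replicate 1 and 2 without AML1-ETO LT-HSC replicate 2 or control GMP replicate 1, 2 or 4. With a library left out, 235 to 735 of all genes were called in that direction, against 552. The median difference over the 70 was 0.44, beside 0.01 over all genes. Between cell types in control mice, 30 of 70 MYC-activated genes were higher in GMPs, against 13.9% of all genes, and 2 lower, against 10.6%, with a median of 0.55. The 30 became 19 without control GMP replicate 1 or 3, and 1505 to 2498 of all genes were higher with a library left out, against 2247. In AML1-ETO mice 51 of the 70 were higher, against 12.6% of all genes, and 1 lower, against 9.15%, with a median of 1.0.

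Of 11 genes known to be repressed by MYC, 4 of 10 tested rose in AML1-ETO LT-HSCs and 0 fell, where 7.59% of all genes rose. The median was 0.48, over 5 positive and 5 negative values, among them Cdkn1c (−3.64, adjusted p = 0.219) and Ndrg2 (−2.95, adjusted p = 0.287). Ndrg1, a differentiation and stress gene, rose by 2.26 ± 0.21 (adjusted p = 0.00122), from 65.0 to 96.4 CPM in control to 326 to 443 CPM. Cdkn1b, the cell cycle inhibitor p27, rose by 1.04 ± 0.24 (adjusted p = 0.0279), Gadd45b by 3.42 ± 0.78 (adjusted p = 0.0274) and Thbs1 by 1.42 ± 0.38 (adjusted p = 0.0461). The call of Ndrg1 held with each library left out. Those of Cdkn1b, Gadd45b and Thbs1 were lost without any 1 AML1-ETO LT-HSC library (adjusted p of 0.0506 to 0.179). They were also lost without control replicate 4 (Cdkn1b, Thbs1), 2 (Gadd45b) or 1 (Thbs1), with adjusted p of 0.0541 to 0.0899. DESeq2 called Thbs1 (adjusted p = 0.0102), and every other alternative setting run did not (0.0516 to 0.152).

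In GMPs 3 of 8 MYC-repressed genes rose and 0 fell, with a median of 0.82 over 7 positive values and 1 negative, where 5.47% of all genes rose. Thbs1 stood at 18.3, 15.7, 6.68 and 19.7 CPM in the controls, compared with 183, 41.6 and 375 CPM in AML1-ETO GMPs (3.74 ± 0.68, adjusted p = 0.0203). Gadd45b (1.04 ± 0.24, adjusted p = 0.0351) and Cdkn1b (0.67 ± 0.15, adjusted p = 0.0319) rose less. RLE factors, upper-quartile factors and DESeq2 also called both. The fit of all 14 samples called neither (adjusted p = 0.44 and 0.108), nor did no filter (0.0501 and 0.056) or the replicate block (0.129 and 0.269). Each of the 3 calls was lost when a single library was left out, with adjusted p of 0.0579 to 0.119. For Thbs1 and Gadd45b this was any 1 of the 4 control GMP libraries. For Cdkn1b it was control GMP replicate 1, 3 or 4, or AML1-ETO GMP replicate 3.

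Over the 14 libraries, the genes whose log2 CPM followed each member most closely were found among 8117 genes, as a description of libraries that share their groups. For Myc they were Ndufs1 (r = 0.919), Mrps35 (0.918), Btbd1 (0.913), Nono (0.89) and Trim35 (0.887), of which Ndufs1 and Mrps35 are mitochondrial. For Mycn they were Tfr2 (0.959), Bcl11a (0.934), Car1 (0.932), Paip2b (0.931) and Atp1b2 (0.913). Tfr2 and Car1 are known erythroid genes, and Car1 had mean levels of 612 CPM in controls and 5.98 CPM in AML1-ETO LT-HSCs. With a prior count of 0.5 in place of 2, 2 of these 5 stayed among the closest.

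For Mxd1 the closest genes were Tnfaip3 (r = 0.958), an inhibitor of NF-kB signalling, Ccng2 (0.949), Arhgef3 (0.934), Sgk1 (0.93) and H2-D1 (0.919). For Mxd4 they were Heca (0.974), Dtx3l (0.965), Camk2b (0.964), Ube2h (0.962) and Ikzf2 (0.96). Tnfaip3 had mean levels of 375 CPM in controls and 2411 CPM in LT-HSCs with AML1-ETO, and 183 and 952 CPM in GMPs, which is the order of Mxd1. Ikzf2, a lymphoid and stem cell zinc finger factor, had 55.6 and 387 CPM in LT-HSCs and 35.2 and 86.7 CPM in GMPs, as Mxd4 higher in AML1-ETO LT-HSCs than in any other group by mean.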

How the data were processed

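Gene counts were deposited by the authors as 1 table of raw counts for 14 libraries, and the submitters' processing notes name HISAT2 2.0.5, featureCounts 1.5.0-p3 and mm10, without roles. No source states strand setting or annotation release. Per the labels' protocols, SMART-Seq v4 and SMARTer Stranded kits were used, with their roles unstated. The 9 members and all gene lists were chosen with earlier results of these data known. Counts were fitted with edgeR 4.0.16 (R 4.3.3; filterByExpr, TMM, quasi-likelihood, two-sided, Benjamini-Hochberg over all genes tested, threshold 0.05), within a cell type on 7 libraries and otherwise on all 14. SE is the absolute log2 fold change over the root of F. Alternatives were RLE and upper-quartile factors, DESeq2 1.42.0, limma-voom 3.58.1, no filter, a replicate block, other sample sets and each library left out. The script was tested on simulated data. Depth was 13210952 to 19403864 counts, and 105 repeated symbols stayed separate rows. Genes outside the network were named if called, without overlap and with a mean of at least 20 counts, up to 4 per direction, list and cell type. Libraries with the same number were not treated as pairs in the main tests, since no label ties them. The replicate block was a term for each replicate number. Within a cell type it joined AML1-ETO and control libraries of the same number, a pairing that no label gives. Between cell types it joined libraries of the same genotype and number.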

Additional observations from a re-analysis of the deposited data

Results flagged for a closer look

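Of the control groups of 4 libraries, 5 gene values stood apart from the other 3 by Dixon's test at the 95% level, which chance does in about 1 of 20 groups. How many gene values were looked at is not given, so the 5 cannot be set against that rate. Max stood at 113 CPM in control GMP replicate 2, against 121.5 to 121.8 CPM in the others. Mlxipl stood at 2.85 CPM in control LT-HSC replicate 1, with 0 in the others, and at 1.74 CPM in control GMP replicate 4, against 0.454 to 0.484 CPM. Bin1 stood at 36.6 CPM in control LT-HSC replicate 3, against 15.2 to 16.3 CPM, and Cdkn1b at 83.7 CPM in control GMP replicate 2, against 60.4 to 64.1 CPM.

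The AML1-ETO effect differed between GMPs and LT-HSCs for 10 of the genes named by the rule. The test was edgeR's quasi-likelihood test of the difference (GMP minus LT-HSC, log2), which called 6.34% of all 16116 genes. Genes outside the network had been named by a call within a cell type of these same libraries, which favours a call here. The count of 10 is therefore no separate result. Among network genes these were Myc (−1.04, adjusted p = 0.0373), Mycn (8.07, adjusted p = 0.0225) and Mlxip (−1.39, adjusted p = 0.0309). Among cofactors they were Bin1 (−3.33, adjusted p = 0.00102), Pim1 (−1.29, adjusted p = 0.0313) and Cdk9 (−0.78, adjusted p = 0.0388). Among MYC-activated genes they were Tfrc (2.74, adjusted p = 0.00538), Slc16a1 (2.04, adjusted p = 0.00876), Mthfd2 (2.34, adjusted p = 0.0265) and Tert (−4.59, adjusted p = 0.0462), the last a fitted value with no Tert count in AML1-ETO GMPs. Outside that rule, Mthfd1l (0.76, adjusted p = 0.0376) of the MYC-activated and Gadd45a (1.64, adjusted p = 0.0419) of the MYC-repressed genes were also called. The calls of Bin1, Tfrc and Slc16a1 held with each of the 14 libraries left out. Leaving out single libraries ended those of Pim1 (8 of 14 fits, adjusted p of 0.0505 to 0.0849), Cdk9 (9 of 14, 0.0603 to 0.0933), Mthfd2 (5 of 14, 0.0575 to 0.0865) and Tert (11 of 14, 0.0561 to 0.108). It also ended those of Myc (8 of 14, 0.0574 to 0.106), Mycn (5 of 14, 0.0502 to 0.931) and Mlxip (9 of 14, 0.0518 to 0.0858). The Mycn value was 0.35 without AML1-ETO GMP replicate 3, and limma-voom did not call it (adjusted p = 0.0641).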

How the results depend on the processing

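The calls of Mycn, Mxd1 and Mxd4 in LT-HSCs and of Mxd1 in GMPs held under every alternative run. For the other results the cause of a change was not tested. Upper-quartile factors moved the median of all genes from 0.03 to −0.10 in LT-HSCs, and RLE factors from 0.02 to −0.12 between cell types in control.
In LT-HSCs, 3249 genes were called with DESeq2, 525 with the replicate block and 3166 with all 14 samples in 1 fit, against 1791, and 334 to 2376 with a library left out. Myc was −0.05 (RLE), −0.12 (upper quartile), −0.05 (DESeq2) and −0.09 (all samples), and −0.14 to 0.13 with a library left out. Mlx was 0.00 with no filter, and −0.24 to 0.21.
In GMPs, 2950 genes were called with DESeq2, 816 with no filter, 112 with the replicate block and 458 with all samples, against 1319, and 131 to 3514 with a library left out. Members called higher were 1 with the block and with all samples, against 2 (1 to 3 with a library left out), and lower 0 with the block, against 1 (0 to 2): the block lost Myc (adjusted p = 0.056) and Mxi1 (adjusted p = 0.103). Mlxip was 0.02 (RLE, DESeq2) and 0.03 (block), Mycn −2.93 and Mycl −0.41 (block). With a library left out, Mycn was −6.99 to 1.36, Max −0.21 to 0.03, Mlx −0.11 to 0.29, Mga −0.61 to 0.05 and Mlxip −0.20 to 0.07.
For the difference between cell types, 2079 genes were called with DESeq2 and 508 with the block, against 1021 (471 to 1477 with a library left out). Members lower were 2 with DESeq2 (0 to 2), and higher 0 with limma-voom (0 to 1), against 1 each. Mxd1 was 0.00 (upper quartile) and −0.01 (no filter). With a library left out, Mycl was −5.11 to 0.78, Mxd1 −0.28 to 0.48, Mxi1 −0.09 to 0.38, Mnt −0.14 to 0.51 and Mlx −0.02 to 0.45.
Between cell types in control, members higher were 3 with RLE, upper quartile, DESeq2 and the block, and 2 with no filter and with the compared groups alone, against 5 (2 to 4 with a library left out). Members lower were 2 with RLE and the block and 3 with DESeq2 and the compared groups alone, against 1 (1 to 2). In AML1-ETO, members higher were 1 with RLE and upper quartile, against 2 (1 to 2), 2092 to 4577 genes were called with a library left out, Myc was −0.24 to 0.18 and Mycn −6.19 to 7.71.
Same-numbered AML1-ETO libraries of the 2 cell types correlated at 0.091, 0.161 and 0.109, each best with its own number, and control ones at 0.001, −0.039, −0.029 and 0.018. No label ties the numbers, so they were not taken as pairs in the main tests. Whether same-numbered AML1-ETO libraries share a mouse is not known, and the main tests between cell types treat them as independent. Mycl and Mlxipl lie near the detection limit of these depths, where 3 counts over control LT-HSCs are 0.0483 CPM.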
